A study of Mus musculus with 35 samples.

Results

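Mn1, Foxf1 and Nkx2-3 are 3 mouse genes for transcriptional regulators, out of 24462 features in the table of normalized read counts. They were chosen by their normalized counts in NUP98-JARID1A leukemia, as genes with little RNA left after 5 days of doxycycline: among 3468 genes with an untreated mean of at least 1000 normalized counts there, they ranked 1, 2 and 3. Among these 3468, Nkx2-3 kept 3.11% of its untreated mean, and Adgrg1, next in order, kept 6.43%. The ranks depend on that minimum: among 8936 genes with an untreated mean of at least 100, the 3 ranked 5, 9 and 17. The contrast of day 5 with untreated NUP98-JARID1A fixed the choice, so its values are given below as a description without a test.

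RNA was sequenced from bone marrow of leukemia-transplanted C57BL/6 mice, after a sort that kept GFP-positive, CD45.2-positive cells. Each leukemia carried 1 regulatable fusion gene, NUP98-JARID1A, NUP98-NSD1 or NUP98-DDX10, in which the front of the nucleoporin NUP98 is joined to another protein. For each fusion there were 3 libraries from mice given doxycycline at 4 mg/ml for 3 days, 3 from mice given it for 5 days, and 4 from untreated mice, of which 1 was titled day 3 and 3 were titled day 5. A group labelled NUP98-CTRL had 3 libraries from untreated mice; its genotype labels name NUP98-NSD1, NUP98-JARID1A and a DDX fusion whose number differs between the 3 samples, so what these control cells carried could not be read from the labels. The labels do not say how many primary leukemias each fusion stands for, so a trait of a fusion and a trait of 1 leukemia cannot be told apart. They also do not say whether the libraries of a group came from separate mice, and p-values then measure only the spread between these libraries. How GFP was used in the sort of doxycycline-treated mice is not given in the sources used here.

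Mn1 is a transcriptional coactivator without a known DNA-binding domain, found as a partner of retinoic acid receptor complexes. It is known as an oncogene in acute myeloid leukemia and meningioma. Foxf1 is a forkhead transcription factor of embryonic mesenchyme and of lung endothelium. Nkx2-3 is a homeobox transcription factor of the NK2 class, which mice need to form the spleen and gut-associated lymphoid tissue. NUP98 fusions are known to bind chromatin and keep developmental genes, above all those of the Hoxa cluster and Meis1, active in leukemic cells.

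In mouse genome build GRCm38, Mn1 (Entrez 433938) lies on chromosome 5 at 111417300 to 111457030, Foxf1 (Entrez 15227) on chromosome 8 at 121084386 to 121088154, and Nkx2-3 (Entrez 18089) on chromosome 19 at 43612325 to 43615892. None of the 3 overlapped another annotated gene. RefSeq's promoter table for this build held an entry for 1 of the 3, Nkx2-3. The 250 bases before its start are shown because Nkx2-3 RNA was nearly confined to the NUP98-JARID1A libraries; capitals mark matches to the motifs searched, and the stretch is chr19:43612075-43612324 on the plus strand.
Nkx2-3: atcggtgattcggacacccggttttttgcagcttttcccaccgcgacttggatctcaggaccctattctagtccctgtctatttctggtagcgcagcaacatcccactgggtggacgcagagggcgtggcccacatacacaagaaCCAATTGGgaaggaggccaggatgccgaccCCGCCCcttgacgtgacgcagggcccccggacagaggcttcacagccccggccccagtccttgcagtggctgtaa
On both strands, 7 short motifs were searched. The CCAAT box matched on both strands, at -105 to -101 on the gene's strand and at -102 to -98 on the opposite one, counted back from the start, so the matches overlap. The GC box, GGGCGG, matched on the opposite strand, at -75 to -70. Of 32851 promoters of the same length, 33.8% hold the CCAAT motif and 32.7% hold the GC box. The letters of the other motifs were not in this window. The TATA box, TATAAA, is in 12.4% of the promoters. The Meis type motif, TGACAG, is in 15.9% of them, and the Hox-Pbx type motif, TGATNNA, is in 28.1%. The Runx type motif, TGTGGT, is in 14.0%, and the Ets type motif, GGAAGT, is in 19.7% of all promoters. These matches describe letters, not bound sites.

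Each library held between 12043487 and 28903870 reads in genes. The deposited values were whole multiples of the value of 1 read in each library, so the reads behind each value could be recovered. The fusions were found in the libraries labelled with them: NUP98-JARID1A averaged 96.4 ± 5.54 normalized counts at day 3 and 85.3 ± 21.9 at day 5 (SD, n = 3 each), against 3225 ± 202 in untreated NUP98-JARID1A libraries (SD, n = 4). The NUP98-CTRL libraries 1, 2 and 3 held 2, 63 and 14 reads of NUP98-JARID1A. Their eGFP was 13.9, 210 and 14.3 normalized counts. Untreated NUP98-DDX10, NUP98-JARID1A and NUP98-NSD1 had eGFP means of 10511, 11652 and 16473. Luciferase was 473, 9.14 and 9.09 in the NUP98-CTRL libraries. How alike the sorted cells of NUP98-CTRL and of the leukemias were was not tested. In NUP98-CTRL, summed B cell markers ranged from 18277 to 102923 normalized counts (all 8 at a mean of at least 10), against 1020 to 2532 over the leukemia libraries. Its T cell sums were 1720 to 4205, against at most 24.5 in leukemias, and its erythroid sums 5910 to 66462, against at most 406. Its myeloid progenitor sums spanned 8187 to 59201. The 3 libraries were not alike: chi-square per degree of freedom between their reads was 12.3 for libraries 1 and 2, but 345 and 361 for library 3 against these.

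Mn1 was expressed in 2 of the 3 leukemias and was far lower under doxycycline in both. In untreated NUP98-JARID1A it had 841, 761, 1120 and 1405 normalized counts. At day 3 the 3 libraries had 139, 82.6 and 89.1, and at day 5 they had 12.2, 5.02 and 11.1. Every doxycycline library lay below every untreated one, as for 13.6% of features at day 3 and 18.4% at day 5; these shares belong to the contrast that chose the genes. The means were 1032 ± 292 (SD, n = 4) untreated, 103 ± 30.6 at day 3 and 9.44 ± 3.86 at day 5 (SD, n = 3 each), which left 10.03% at day 3 and 0.915% at day 5. At day 5 the 3 libraries held 20, 5 and 10 reads of Mn1, so counting error is large there.

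In NUP98-NSD1, whose libraries had no part in the choice, Mn1 followed the same course. Untreated libraries had 429, 544, 498 and 575 normalized counts. Those of day 3 had 68.0, 57.4 and 41.0, and those of day 5 had 5.38, 17.1 and 1.97. The 3 time groups did not overlap; every doxycycline library was below every untreated one for 17.6% of features at day 3 and 19.7% at day 5. Mn1 kept 10.8% of its untreated mean at day 3 and 1.59% at day 5, a level 62.7-fold lower. On the log2(value + 1) scale, which understates changes of low values, Mn1 changed by -3.20 ± 0.56 (SE) at day 3 (limma with trend, Benjamini-Hochberg adjusted p = 0.000316) and by -6.19 ± 0.56 at day 5 (limma, adjusted p = 2.7e-09). Day 5 differed from day 3 by -2.98 ± 0.59 (limma, adjusted p = 0.00179). At the same threshold of 0.05, 4.59% of 12687 features were lower at day 3, 11.9% at day 5, and 4.95% at day 5 against day 3. The untreated library titled day 3, at 429 normalized counts, was the lowest of its 4; in NUP98-JARID1A the corresponding library lay within the range of the other 3.

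In NUP98-DDX10, Mn1 was close to absent. Its 4 untreated libraries had 4.08, 4.65, 2.91 and 2.84 normalized counts, from 14 reads in all. At day 3 the libraries had 0, 1.06 and 1.04, from 2 reads, and at day 5 all 3 had 0. The day 5 group was lower by limma (-2.19 ± 0.56, adjusted p = 0.00769), with 8.64% of features lower, and day 3 did not pass (-1.50 ± 0.56, adjusted p = 0.251), with 1.1% of features called. Against the limit of 3 reads per library that a count of 0 allows, Mn1 at day 5 was at least 1.14-fold lower than in untreated libraries. With a pseudocount of 10 the day 5 call was lost (-0.44, limma adjusted p = 0.245). The day 5 effect in NUP98-NSD1 minus that in NUP98-DDX10 was -3.997 ± 0.78 (limma, adjusted p = 0.00144; 2.82% of features were lower), but it did not pass with a pseudocount of 0.1 (-1.27, limma adjusted p = 0.644), by edgeR (-1.03, adjusted p = 0.854) or by DESeq2 (-1.76, adjusted p = 0.447). Mn1 in NUP98-DDX10 was at 0 at day 5, so its fall could not have been larger on the log2(value + 1) scale.

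Untreated NUP98-NSD1 libraries held 141-fold more Mn1 than untreated NUP98-DDX10 libraries, 512 ± 63.5 against 3.62 ± 0.89 normalized counts (SD, n = 4 each). The difference was 6.80 ± 0.51 on the log2 scale (limma, adjusted p = 3.03e-11), where 21.2% of features were higher in NUP98-NSD1. Untreated NUP98-JARID1A averaged 2.02-fold more than untreated NUP98-NSD1, and every library of the first group was above every library of the second, as for 28.3% of features. That leukemia's untreated level entered the choice of Mn1, so no test is given. From the highest mean down, the order of the groups was NUP98-JARID1A untreated, NUP98-NSD1 untreated, NUP98-JARID1A at day 3, NUP98-NSD1 at day 3, NUP98-JARID1A at day 5, NUP98-NSD1 at day 5, NUP98-CTRL, and NUP98-DDX10 untreated, at day 3 and at day 5. Libraries of neighbouring groups did not overlap down to NUP98-JARID1A at day 5. From there on they overlapped, except that untreated NUP98-DDX10 lay wholly above NUP98-DDX10 at day 3.

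In the 3 NUP98-CTRL libraries Mn1 had 8.84, 9.14 and 0 normalized counts. Untreated NUP98-NSD1 was higher by 6.78 ± 0.56 (limma, adjusted p = 2.75e-11), with 29.7% of features higher. At day 5 NUP98-NSD1 averaged 8.16 ± 7.95 and NUP98-CTRL 5.99 ± 5.19 (SD, n = 3 each), a difference of 0.59 ± 0.59 that did not pass (limma, adjusted p = 0.4), where 58.9% of features were called. Under quantile normalization, which moved the median of all features in this comparison by 0.21, the same difference was 1.84 (limma, adjusted p = 0.000951). Untreated NUP98-DDX10 differed from NUP98-CTRL by -0.03 ± 0.56 (limma, adjusted p = 0.972; 68.5% of features called), and NUP98-DDX10 at day 5 was lower than NUP98-CTRL by limma (-2.21 ± 0.59, adjusted p = 0.00193; 35.7% of features lower). These 2 results rest on the NUP98-CTRL libraries: without the third, which had 0 reads, untreated NUP98-DDX10 differed by -1.13 (limma, adjusted p = 0.0251), and under quantile normalization it differed by 1.23 (limma, adjusted p = 0.0112). The day 5 difference from NUP98-CTRL did not pass under quantile normalization (-0.90, limma adjusted p = 0.0812) or when only the 6 libraries compared were fitted (-2.21, limma adjusted p = 0.0969). In NUP98-JARID1A at day 3, Mn1 was still 17.3-fold above NUP98-CTRL (log2 difference 4.45 ± 0.59, limma adjusted p = 2.19e-07), in a comparison where 31.5% of features were higher. What the B cell, T cell and erythroid cells of NUP98-CTRL, and the spread between its libraries, contribute to these differences was not tested.

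**Figure D1:**
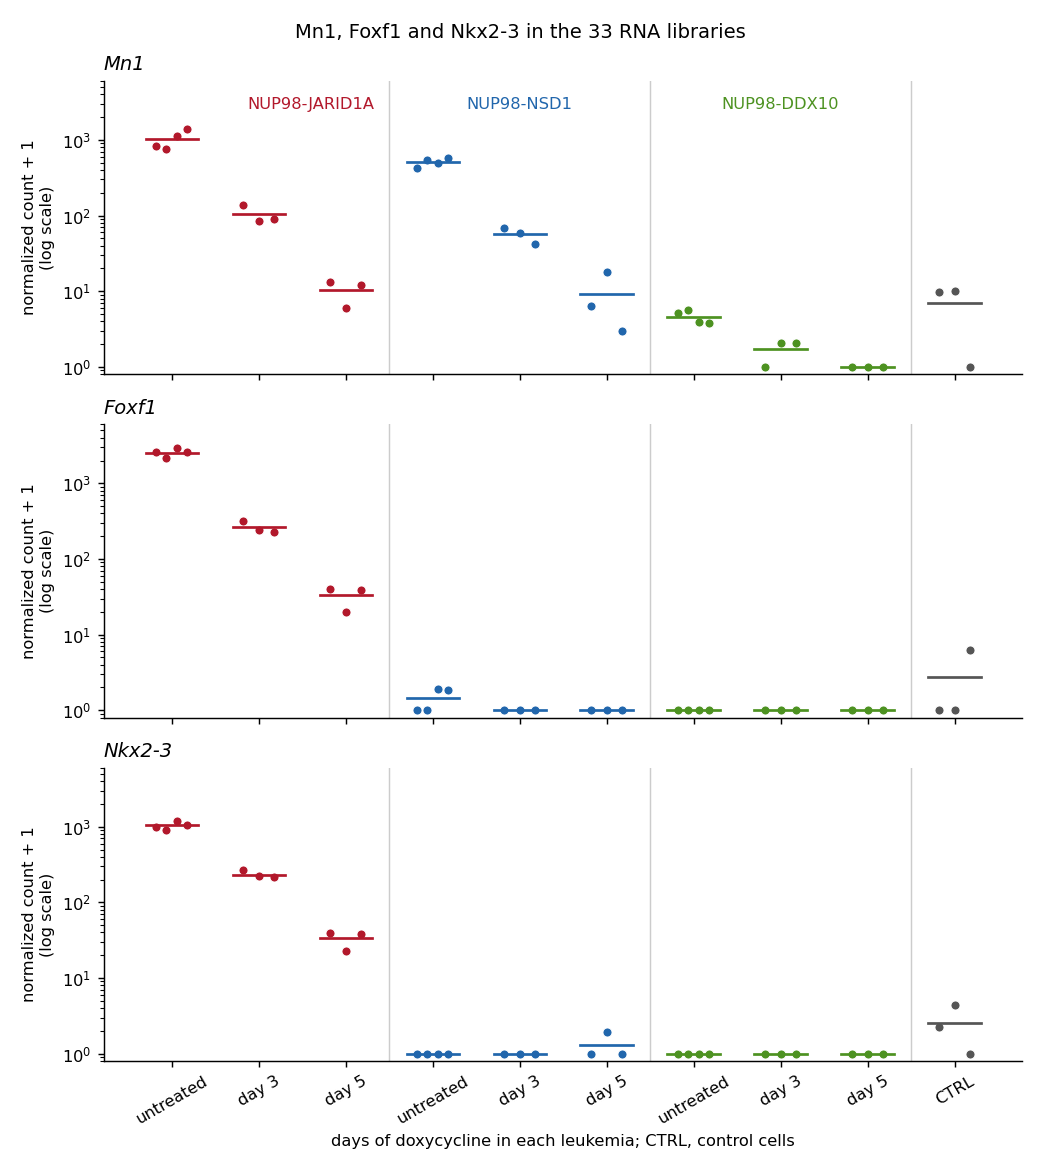
Normalized count plus 1 (log scale) of Mn1, Foxf1 and Nkx2-3 in each of 33 RNA libraries, in the 10 groups; points are libraries and bars are means, with NUP98-CTRL at the right. Mn1 is lower with doxycycline in NUP98-JARID1A and NUP98-NSD1, while Foxf1 and Nkx2-3 stand above a few reads in the NUP98-JARID1A libraries alone.

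Foxf1 RNA was almost entirely a feature of NUP98-JARID1A. Its untreated libraries had 2570, 2157, 2896 and 2555 normalized counts. At day 3 the libraries had 320, 242 and 224, and at day 5 they had 39.5, 19.1 and 37.9. The 3 groups did not overlap; of all features, 13.6% were below every untreated library in every day 3 library of this leukemia and 18.4% in every day 5 library, and the day 5 values chose the genes. The means of 2544 ± 302, 262 ± 50.9 and 32.2 ± 11.3 left 10.3% at day 3 and 1.26% at day 5. In the other 2 leukemias, Foxf1 had 2 reads over the 10 NUP98-NSD1 libraries, both untreated, and 0 reads over the 10 NUP98-DDX10 libraries. The third NUP98-CTRL library held 4 reads and the others held 0. At day 5, the lowest NUP98-JARID1A library had 19.1 normalized counts of Foxf1, against at most 5.19 in the libraries of the other 7 groups. How many features are separated in this way was not counted.

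Nkx2-3 RNA was likewise found almost entirely in NUP98-JARID1A. Untreated NUP98-JARID1A libraries had 1000, 903, 1190 and 1068 normalized counts. Those of day 3 had 264, 220 and 213, and those of day 5 had 38.3, 22.1 and 36.8. The means were 1040 ± 120, 232 ± 27.8 and 32.4 ± 8.94, which left 22.4% at day 3 and 3.11% at day 5. NUP98-NSD1 held 1 read in its 10 libraries, in a day 5 one, and NUP98-DDX10 held 0 reads in its 10. NUP98-CTRL libraries 1, 2 and 3 held 1, 3 and 0 reads. Over 3 reads per library, the limit that a count of 0 allows for counting error only, untreated NUP98-JARID1A was at least 338-fold higher than untreated NUP98-DDX10 for Nkx2-3 and at least 827-fold higher for Foxf1.

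No test is given for Foxf1 and Nkx2-3, since both passed the filter on low values only through NUP98-JARID1A libraries, the leukemia in which they were chosen. NUP98-CTRL held 4 reads of each gene over its 3 libraries. The second NUP98-CTRL library held 72.0 normalized counts of NUP98-JARID1A, near the 60.2 to 100 of the day 5 NUP98-JARID1A libraries, with 0 reads of Foxf1 and 3 of Nkx2-3.

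Only 6 genes had an untreated NUP98-JARID1A mean of at least 100 normalized counts and an average of at most 3 reads per library in each of the 7 groups without that fusion. Foxf1 and Nkx2-3 had the highest levels of the 6, and the third, G730013B05Rik, had 277. The untreated level entered the choice of Foxf1 and Nkx2-3, so their place at the top was partly fixed by it. Of the others, the receptor gene Il20ra kept 0.532% at day 5, Morc1 47.2%, G730013B05Rik 21.0%, and the folate enzyme gene Aldh1l1 147%.

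The values of the 3 genes at day 3 and day 5 were set beside those of the fusion, as a description in NUP98-JARID1A, where the day 5 libraries chose the genes. NUP98-JARID1A RNA kept 2.99% of its untreated mean at day 3 and 2.65% at day 5, and the eGFP marker kept 2.90% and 2.77%, so both were as low at day 3 as at day 5. Between these days Mn1 was 11.0-fold, Foxf1 8.14-fold and Nkx2-3 7.18-fold lower at day 5, against 1.13-fold for the fusion. At day 3 Mn1 was 9.98-fold, Foxf1 9.72-fold and Nkx2-3 4.47-fold lower than in untreated libraries. At day 3 the shares left in single libraries were 20.5% to 25.4% for Nkx2-3, above the 8.79% to 12.6% of Foxf1 and the 8.01% to 13.4% of Mn1. At day 5 they were 2.13% to 3.68% for Nkx2-3, above the 0.750% to 1.55% of Foxf1 and the 0.487% to 1.18% of Mn1, which overlapped each other. In NUP98-NSD1, the fusion transcript was at 0.0896% at day 3 and 0.0847% at day 5, while Mn1 was 6.80-fold lower at day 5 than at day 3. The luciferase marker of the same cells kept 147% at day 3 and 145% at day 5 in NUP98-JARID1A.

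**Figure D2:**
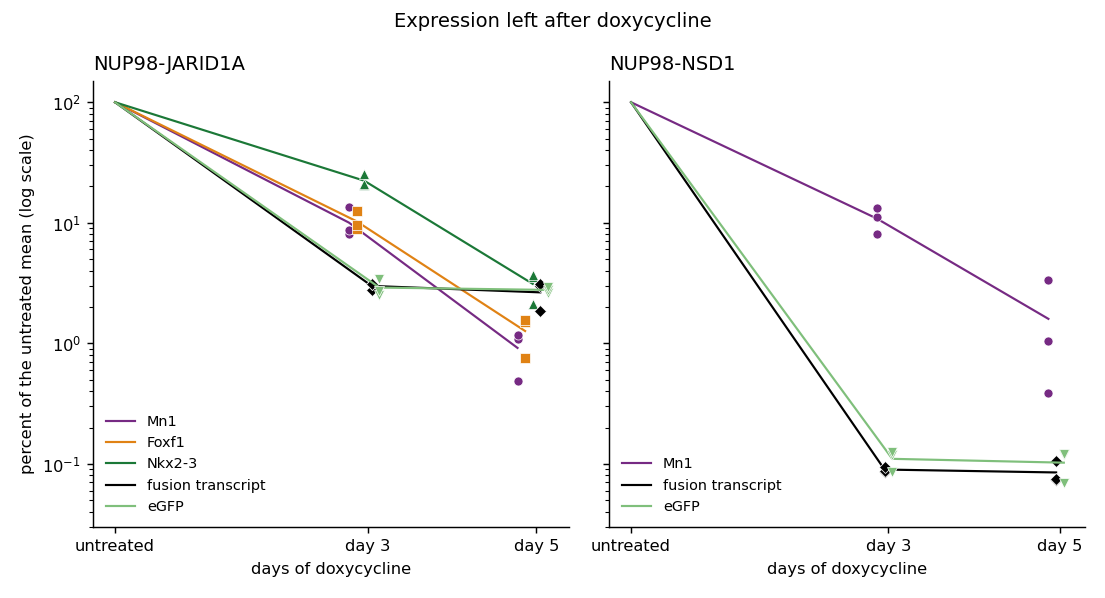
Percent of the untreated mean (log scale) against days of doxycycline in NUP98-JARID1A (left) and NUP98-NSD1 (right); symbols are single libraries and lines join the means. The fusion transcript and eGFP are flat between day 3 and day 5, while Mn1, Foxf1 and Nkx2-3 are lower at day 5 than at day 3.

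These are bulk samples, in which fewer cells of a type and less RNA per cell cannot be told apart. Summed marker levels differed between day 5 and untreated libraries. The summed level of 8 monocyte markers, led by Lyz2, ranged from 294697 to 306007 normalized counts in NUP98-JARID1A at day 5, against 102357 to 127183 untreated. The summed level of 8 myeloid progenitor markers, led by Mpo, ranged from 35433 to 55756 at day 5, against 88599 to 122906 untreated. In NUP98-NSD1 the monocyte sums were 267488 to 329448 at day 5, against 135207 to 154213 untreated, and the progenitor sums were 11780 to 22011, against 71201 to 93433. Every marker of these 2 lists had a mean of at least 10 in all 10 groups. Their part in the lower level of the 3 genes was not tested.

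Foxf1 and Nkx2-3 are best known from mesenchyme and vessels, so markers of those cells were read beside them. The sort kept GFP-positive and CD45.2-positive cells, and its effect on such cells was not tested. Of 12 endothelial markers, 8 had 0 reads in all untreated NUP98-JARID1A libraries, among them Kdr, Tek, Tie1 and Emcn. The other 4 had a mean of at least 10 there. The summed level of the 12, carried mostly by Pecam1 with Plvap next, was 2761 to 3016 normalized counts in untreated NUP98-JARID1A. Plvap did not lead the sum with Pecam1 in any other group. In untreated NUP98-DDX10, where Foxf1 and Nkx2-3 had 0 reads, the sum was 3615 to 4227, led by Pecam1 and Vwf. At day 5 the sum was 589 to 676 in NUP98-JARID1A, led by Pecam1 and Cdh5. Of 12 stromal markers, 5 had a mean of at least 10 in untreated NUP98-JARID1A, and Col3a1, Dcn and Lum had 0 reads there. The untreated sum was 661 to 955 normalized counts, led by Pdgfrb and Acta2. It was 325 to 471 in untreated NUP98-DDX10, 160 to 212 in untreated NUP98-NSD1 and 767 to 1094 in NUP98-CTRL. In NUP98-JARID1A at day 5, when little Foxf1 and Nkx2-3 was left, the stromal sum was 578 to 1253. The part of such cells in the levels of the 3 genes was not tested.

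Over all genes the 3 stood at the far edge of the NUP98-JARID1A response to doxycycline. This contrast chose them, so their place there was fixed by the choice and the ranks are a description. Among 8936 genes with an untreated NUP98-JARID1A mean of at least 100, the median gene kept 99.8% at day 5, and Mn1, Foxf1 and Nkx2-3 ranked 5, 9 and 17 by least left. Above Mn1 stood Myo16, Gata3, Il20ra and Il31ra, all with lower untreated means, of 102 to 505. Next to Foxf1 stood Sox4 (1.26%) and Angpt1 (1.28%), and next to Nkx2-3 stood Hoxa3 (3.00%) and Hoxa5 (3.27%).

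**Figure D3:**
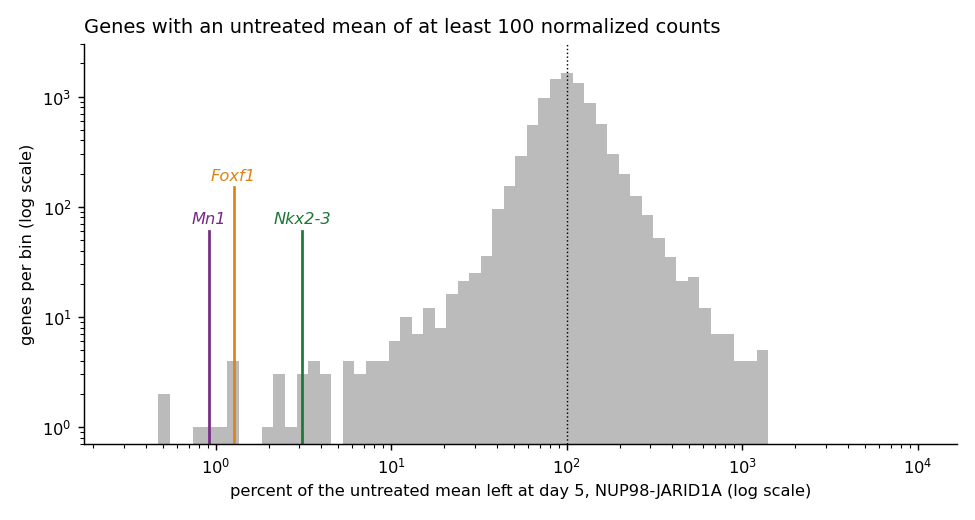
Genes per bin (log scale) by the percent of the untreated mean left at day 5 in NUP98-JARID1A (log scale), for 8936 genes with an untreated mean of at least 100 normalized counts; 1 gene at 0 is not drawn. Mn1, Foxf1 and Nkx2-3, marked by lines at 0.915%, 1.26% and 3.11%, lie in the sparse left tail, as genes chosen by this contrast.

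Of the tested genes near the 3 on the chromosome, 1 kept a share as small as theirs at day 5 in NUP98-JARID1A. Fendrr, a long noncoding RNA gene whose nearest end lies 1.28 kb from Foxf1, had 77.8, 51.5, 72.0 and 61.9 normalized counts in untreated NUP98-JARID1A. It had 5.10, 3.71 and 8.72 at day 3 and 1.82, 0 and 1.11 at day 5, and 0 reads in every other group. It kept 1.49% at day 5, beside 1.26% for Foxf1. Mthfsd, 3.47 kb from the other end of Foxf1, averaged 119 ± 30.7 at day 5, against 134 ± 29.6 untreated, and was detected in all 3 leukemias. The forkhead genes Foxc2 and Foxl1, 28.0 and 39.5 kb away, had 0 reads in all leukemia libraries. Irf8, a transcription factor gene of monocyte development 328 kb away, kept 146%. Within 500 kb of Foxf1, 7 of 13 genes in the table passed the filter on low values.

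Around Mn1, 2 of 5 genes passed that filter. Pitpnb, 28.9 kb away, averaged 1446 ± 153 normalized counts at day 5 in NUP98-JARID1A, against 1565 ± 51.9 untreated. Ttc28, 128 kb away, kept 102% of a low level. In NUP98-NSD1, Pitpnb differed by -0.03 on the log2 scale at day 5 (limma, adjusted p = 0.82). Around Nkx2-3, 14 of 16 genes passed the filter. The nearest 3, Slc25a28, BC037704 and Entpd7, kept 98.2%, 64.5% and 114% at day 5. The least left of the 14 was 27.4%, for Cyp2c23 at 389 kb, and Cpn1 at 340 kb kept 35.8%. Their untreated means were 19.2 and 11.5 normalized counts. At day 5 both were also lower in NUP98-NSD1 (-1.75 and -2.03, limma adjusted p = 0.0124 and 4.68e-05). In NUP98-DDX10 they changed by -1.71 and -1.47 (limma, adjusted p = 0.0237 and 0.00371). Over all features 11.9% and 8.64% were lower. Slc25a28 was higher in NUP98-NSD1 (0.46, limma adjusted p = 0.0173). Got1 and Chuk were higher in NUP98-DDX10 (0.42 and 0.66, limma adjusted p = 0.0372 and 0.00215).

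**Figure D4:**
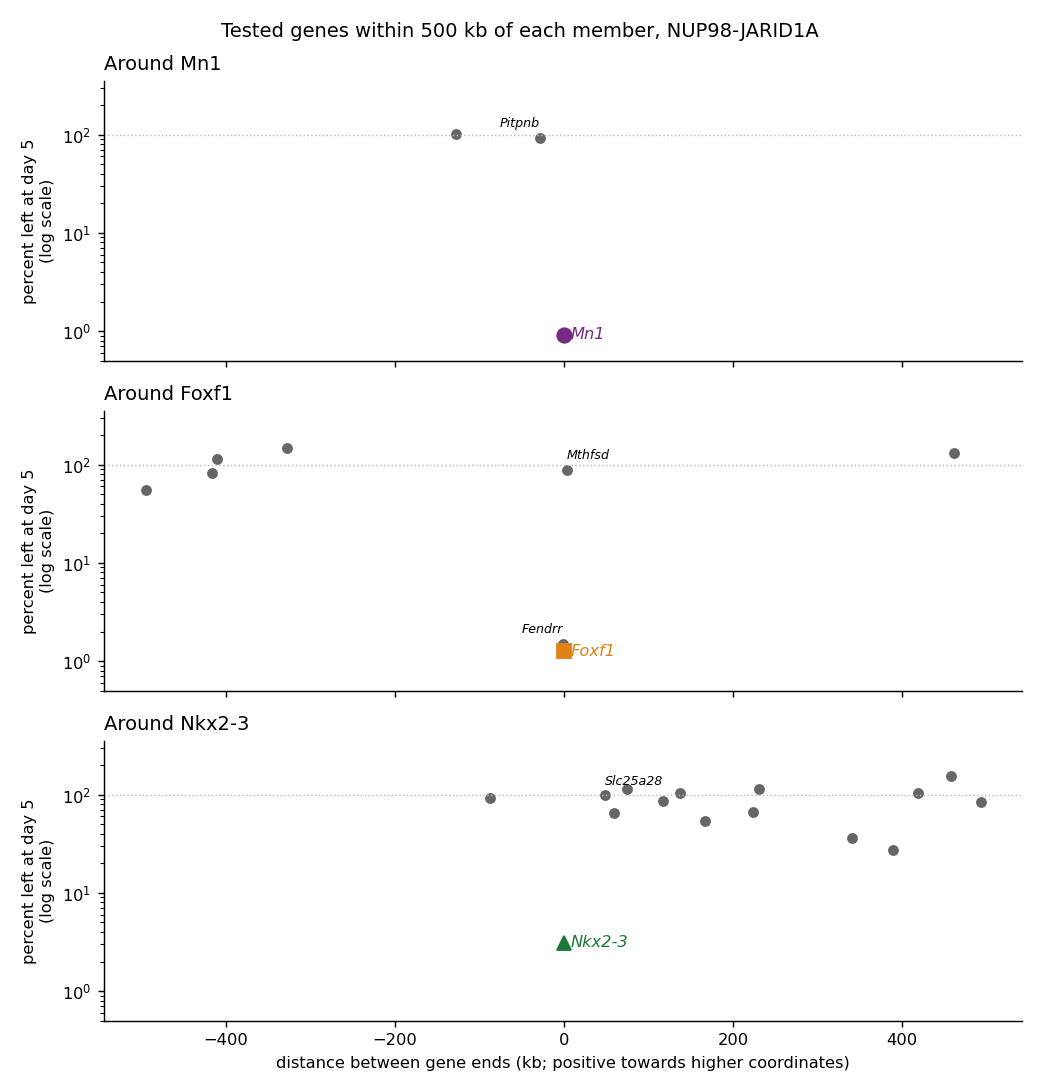
Percent of the untreated mean left at day 5 in NUP98-JARID1A (log scale) for the tested genes within 500 kb of each of the 3 genes, by the distance between gene ends in kb; coloured symbols are Mn1, Foxf1 and Nkx2-3. Fendrr lies beside Foxf1 at 1.49%, and every other neighbour drawn kept at least 27.4%.

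Likeness of pattern was measured as Pearson's r of log2(value + 1) over the 33 libraries, which share their groups, so r mostly reflects group means. Foxf1 and Nkx2-3 were each other's most similar gene (r = 0.983). Both, and Mn1, were chosen on the untreated and day 5 NUP98-JARID1A libraries, which are among the 33. Their r with each other was thus partly fixed by the choice. After Nkx2-3, the genes most like Foxf1 were Atf7ip2 (0.962), Zfp345 (0.951), Fendrr (0.947) and Akr1c12 (0.935), all at 0 or under 1 normalized count in untreated NUP98-NSD1 and NUP98-DDX10. Next to Foxf1, Nkx2-3 was most like Akr1c12 (0.961), Morc1 (0.954), Atf7ip2 (0.952) and Aplnr (0.946). Aplnr, the apelin receptor gene, averaged 1122 ± 198 at day 5, against 2080 ± 197 untreated, in NUP98-JARID1A, so it kept a larger share than either. Mn1 correlated with Foxf1 at 0.601 and with Nkx2-3 at 0.586.

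Among the genes reported, the 5 most like Mn1 were Rhoj (0.890), Ephb2 (0.884), Six4 (0.883), Tmem98 (0.872) and Thsd1 (0.852), whose untreated means were also higher in NUP98-JARID1A and NUP98-NSD1 than in NUP98-DDX10. Rhoj averaged 48.4 ± 7.69 at day 5, against 287 ± 57.3 untreated, in NUP98-JARID1A. The ephrin receptor gene Ephb2 averaged 29.1 ± 1.82 at day 5, against 845 ± 261 untreated. The homeobox gene Six4 stood out by 1 library: untreated NUP98-JARID1A replicate 3 had 535 normalized counts, while the other 3 had 37.6 to 76.8. The same library had the highest Mn1, 1405, while its Foxf1 and Nkx2-3 lay within the range of the others. Without it, a choice made after seeing the data, Mn1 averaged 907 in untreated NUP98-JARID1A and kept 1.04% at day 5, and its r over 32 libraries with Six4 was 0.887.

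**Figure D5:**
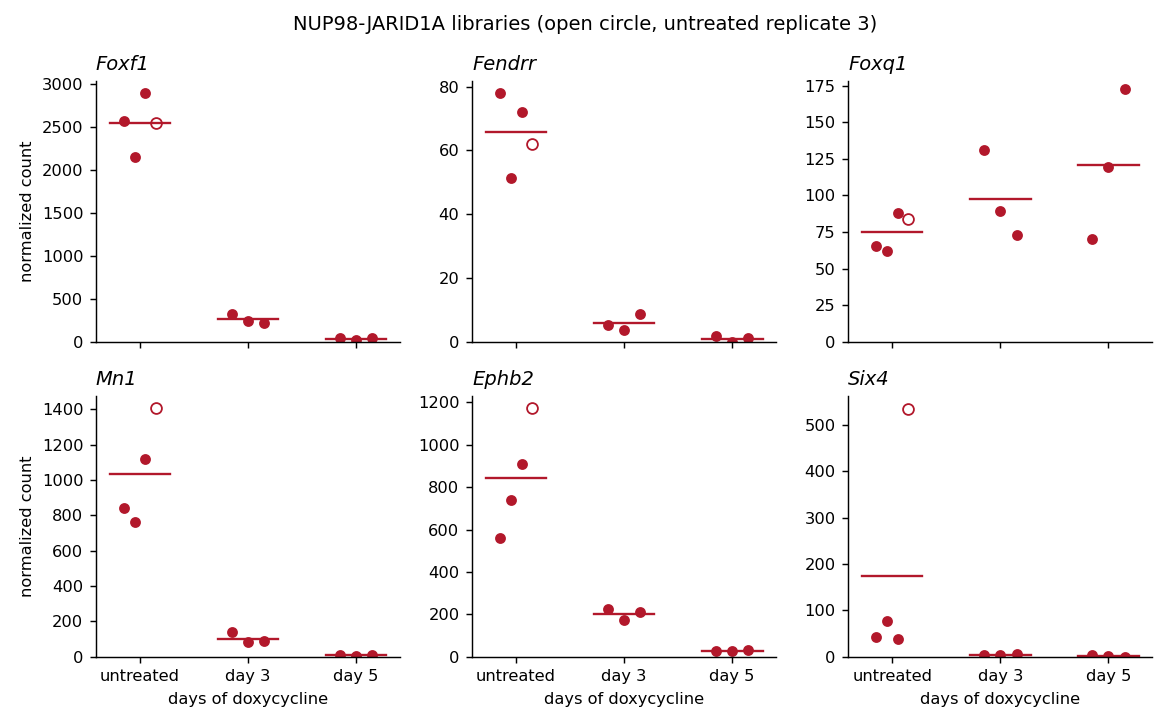
Normalized counts of Foxf1, its neighbour Fendrr, its family member Foxq1, and Mn1, Ephb2 and Six4 in the NUP98-JARID1A libraries by days of doxycycline; points are libraries, bars are means, and the open circle is untreated replicate 3. Fendrr is lower with doxycycline beside Foxf1 and Foxq1 is not, and replicate 3 is the highest untreated library for Mn1, Ephb2 and Six4.

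Few forkhead genes had a course like that of Foxf1. Of 44 forkhead genes, 19 passed the filter and 9 had 0 reads in every library. The 4 with the highest mean were Foxp1, Foxm1, Foxk1 and Foxk2, which kept 50.4%, 110%, 129% and 97.9% at day 5 in NUP98-JARID1A. Foxq1, named here after its values were seen, was also specific to this leukemia, with 0 reads in NUP98-NSD1 and NUP98-DDX10 and a mean of 6.21 in NUP98-CTRL. Its libraries had 65.7, 62.3, 87.7 and 84.2 normalized counts untreated, 131, 89.1 and 72.7 at day 3 and 70.5, 120 and 173 at day 5, and these groups overlapped. In NUP98-NSD1 at day 5, 1 forkhead gene was higher (Foxj2, 1.17 ± 0.19, adjusted p = 3.51e-05) and 1 lower (Foxs1, -3.86 ± 0.49, adjusted p = 9.04e-07) by limma, both named after their values were seen; 25.4% of all features were called. With a fit of only the libraries compared, 5 were higher and 3 lower. In NUP98-DDX10 at day 5, where 15.1% of features were called, 0 of the 19 passed by limma, edgeR or DESeq2. At an unadjusted p under 0.05, limma had 2 higher and 2 lower. Foxf1 and Foxq1 are among the 19 and had 0 reads in NUP98-DDX10, so neither could be called there. In NUP98-NSD1, Foxq1 had 0 reads and Foxf1 had 2.

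Of 25 NK-type homeobox genes, 2 passed the filter and 12 had 0 reads in every library. The other one, Hhex, a homeobox gene of blood progenitors, kept 118% at day 5 in NUP98-JARID1A. It differed by -0.12 ± 0.17 in NUP98-NSD1 (limma, adjusted p = 0.677) and by -0.11 ± 0.17 in NUP98-DDX10 (limma, adjusted p = 0.723) at day 5.

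Genes of the receptors and coactivators with which Mn1 is known to act were expressed. Of 12 retinoid receptor and coactivator genes, 10 passed the filter. At day 5 in NUP98-NSD1, 4 of them rose by limma: the retinoic acid receptor genes Rara (1.33 ± 0.25, adjusted p = 0.000185) and Rarg (1.24 ± 0.30, adjusted p = 0.00247), and the coactivator genes Ncoa1 (0.88 ± 0.10, adjusted p = 1.14e-07) and Ncoa3 (0.45 ± 0.16, adjusted p = 0.0354). Of the 10, 0 fell by limma, edgeR or DESeq2, and 0 at an unadjusted p under 0.05 by limma; 1 was lower under quantile normalization. Over all features 13.5% rose. The list's median was 0.22, against 0.00 over all features. The acetyltransferase genes Ep300 and Crebbp differed by 0.23 ± 0.11 and 0.16 ± 0.15 and did not pass (limma, adjusted p = 0.123 and 0.488). In NUP98-DDX10 at day 5, 1 of the 10 fell by limma, Ncoa2 (-0.39 ± 0.09, adjusted p = 0.00307), where 8.64% of all features fell. In NUP98-JARID1A, Rara kept 256% and Rarg 364%.

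Of 16 Hoxa, Meis and stem cell program genes, 15 passed the filter. This list, like the others, was chosen with earlier results of these data known, so its counts and medians may owe part to that choice. At day 5 in NUP98-NSD1, 12 fell and 1, Pbx3, rose (0.91 ± 0.17, limma adjusted p = 0.000142), where 11.9% of all features fell and 13.5% rose. The list's median was -1.72, against 0.00 over all features. In NUP98-DDX10, 11 of the 15 fell by limma and 0 rose by limma, edgeR or DESeq2, where 8.64% of all features fell. The list's median there was -1.73, against 0.00 over all features, and at an unadjusted p under 0.05, 12 were lower and 0 higher. Sox4 had the deepest fall of the 12 in NUP98-NSD1 (-4.21 ± 0.45, limma adjusted p = 5.49e-08), beside -6.19 for Mn1. The Cdk6 gene, named in the study's title and coding for a cell cycle kinase, changed by -1.95 ± 0.24 in NUP98-NSD1 (limma, adjusted p = 4.27e-07) and by -0.83 ± 0.24 in NUP98-DDX10 (limma, adjusted p = 0.0165). Hoxa9 changed by -2.17 ± 0.57 in NUP98-NSD1 (limma, adjusted p = 0.00581) and by -1.73 ± 0.57 in NUP98-DDX10 (limma, adjusted p = 0.0406). In NUP98-JARID1A, Cdk6, Myb and Hoxa9 kept 24.6%, 23.2% and 11.8% at day 5, while Sox4, Hoxa5 and Hoxa6 of the same list kept 1.26%, 3.27% and 3.48%.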

How the data were processed

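RNA from 33 libraries in 10 groups was read from 1 deposited table; 2 further samples are chromatin immunoprecipitation and were not analysed here. Per the labels, libraries were poly-A selected and stranded. Per the submitters' processing notes, FastQC, STAR, SAMtools, featureCounts and DESeq2 were used on builds GRCm38 and mm10; the strand setting and versions are not given in the sources used here. The deposited signal values are normalized counts that the authors had scaled with 1 factor per library: 100% of values were whole reads within 0.01 read, and reads and depth were recovered from these steps. Depth was 12043487 to 28903870 reads in genes per library, and the limit for a count of 0 was 3 reads; limits and intervals cover counting error only.

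The main test was limma 3.58.1 (R 4.3.3) with a trend on log2(value + 1), in 1 fit of 10 group means, over 12687 features with at least 10 in at least 3 libraries, two-sided, Benjamini-Hochberg adjusted over all of them, threshold 0.05; it was tested on simulated data. Pseudocounts of 0.1 and 10, no filter, a filter at 50, quantile normalization, a replicate block, fits of only the libraries compared, edgeR 4.0.16 and DESeq2 1.42.0 on recovered reads, and leaving out each library were alternatives. Of 27 same-numbered pairs, 7 had r over 0.1. In each comparison within NUP98-NSD1 and NUP98-DDX10 at least 1 pair did not, so these were not treated as paired; in NUP98-JARID1A, day 5 against untreated, which was not tested, all 3 did (0.293, 0.417 and 0.438).

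Genes were matched by Entrez identifier. Named were the 3 genes, the constructs, for each gene the 5 with the most similar pattern, up to 6 nearest neighbours, and up to 4 genes of each list with the highest mean; others were named after their values were seen, and 1 gene that the rule names is not reported here. The members and lists were chosen with earlier results of these data known.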

Additional observations from a re-analysis of the deposited data

Results flagged for a closer look

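In untreated NUP98-JARID1A, replicate 3 stood apart for the homeobox gene Six4 (535 normalized counts, against 37.6 to 76.8 in the other 3 libraries): its gap to the nearest library was 0.921 of the whole range, above Dixon's critical value for 4 samples. In the same group, the library titled day 3 was low for eGFP, at 9450 normalized counts, against 12320 to 12506 in the other 3, a gap of 0.939 of the range. Of 52 groups of 4 libraries checked, 2 were marked in this way, and chance marks about 1 in 20.

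For Mn1 at day 5, the effect in NUP98-NSD1 minus that in NUP98-DDX10 was -3.997 on the log2(value + 1) scale (limma, adjusted p = 0.00144). The difference did not pass with a pseudocount of 0.1 (-1.27, limma adjusted p = 0.644), by edgeR (-1.03, adjusted p = 0.854) or by DESeq2 (-1.76, adjusted p = 0.447). Mn1 in NUP98-DDX10 averaged 0 normalized counts at day 5, against 3.62 untreated, so its fall could not have been larger on this scale.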

How the results depend on the processing

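Of 108 refits of the 12 tested changes of Mn1 under 9 other settings, 99 kept their side of the threshold. A change that passed in neither fit counted as kept whatever its sign. For Mn1 in NUP98-DDX10, the day 3 change passed when only the libraries compared were fitted (-1.50, limma adjusted p = 0.0462), and the day 5 change did not pass with a pseudocount of 10 (-0.44). Against NUP98-CTRL, quantile normalization gave 1.23 for untreated NUP98-DDX10, against -0.03, -0.90 for NUP98-DDX10 at day 5 and 1.84 for NUP98-NSD1 at day 5; it moved the median of all features by 0.21 to 0.29 in comparisons with NUP98-CTRL. With only the libraries compared, NUP98-DDX10 at day 5 differed from NUP98-CTRL by -2.21 without passing. The difference of day 5 effects was -1.27 with a pseudocount of 0.1, -1.03 by edgeR and -1.76 by DESeq2. The cause of these changes was not tested. Leaving out 1 of 26 libraries gave 88 refits, of which 87 kept their call. Untreated NUP98-DDX10 against NUP98-CTRL then ranged from -1.13, without NUP98-CTRL replicate 3, to 0.54, and Mn1 in NUP98-NSD1 at day 5 ranged from -6.87 to -5.57. With a replicate block Mn1 in NUP98-NSD1 changed by -6.18 at day 5 (limma, adjusted p = 3.91e-09), and no call on Mn1 changed; features called in NUP98-DDX10 at day 3 were 285, against 139, and in NUP98-NSD1 at day 3 they were 1868, against 1159. Fits of only the libraries compared called 587 and 3520 in these, 3520, against 1919, in NUP98-DDX10 at day 5, 4513, against 7474, for NUP98-NSD1 at day 5 against NUP98-CTRL, and 2660, against 1056, for the difference of effects; DESeq2 called 237 in NUP98-DDX10 at day 3. Leaving out 1 library lowered some of these counts most to 48 in NUP98-DDX10 at day 3 (without day 3 replicate 1), 993 at day 5 (without day 5 replicate 3), 624 in NUP98-NSD1 at day 3 (without day 3 replicate 1), and, without NUP98-NSD1 day 5 replicate 2, to 505 against 1346 for NUP98-NSD1 day 5 against day 3 and 550 for the difference of effects. By read number, Mn1 at day 5 and Mn1 in NUP98-DDX10 and NUP98-CTRL rest on at most 20 reads a library.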
